A study of Mus musculus with 2 samples.

Results

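Ly6a, Ly6c1, Ly6c2, Ly6e and Ly6i are 5 Ly6 genes of mouse chromosome 15 that lie in one block near Hsf1, and they were 5 of the 16416 genes in the expression table. They were taken as a named list and followed across the 22 deposited clusters and both libraries, with the immune clusters set against the Tumor clusters. The list was chosen by measured values of these libraries: Ly6i and Ly6c2 were already known to be among the genes with the lowest ratios of mutant over wild-type in macrophages, and Ly6i was known to lead the macrophage cluster C02. Levels by cluster and ratios between genotypes are therefore given as a description, and none was tested.

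The tumors compared came from wild-type mice (WT) and from mice whose heat shock factor 1, the product of Hsf1, has alanine in place of serine at positions 303 and 307 (S303/7A). Tumors of several mice were pooled for each library (the series' design text speaks of 4 mice), live CD45+ and CD45- cells were sorted and mixed 5 to 1, and there was 1 library per genotype, so no difference has a replicate check. No source used here gives the engrafted tumor line, how the allele was made, or the age and strain of the mice, so a difference at Hsf1 and any allelic difference at the linked Ly6 block cannot be told apart. The genotype is that of the mice, and whether the cells of the Tumor clusters carry it is not given. Ratios in Tumor clusters therefore compare tumors from S303/7A mice with tumors from WT mice. The series' title asks how the stress response of natural killer (NK) cells bears on immunity against tumors.

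Ly6 proteins are small, cysteine-rich proteins of the Ly6/uPAR family, many of which are held at the cell surface by a glycosylphosphatidylinositol (GPI) anchor. Ly6a encodes Sca-1, a marker of blood stem cells that is also made by activated lymphocytes, Ly6c1 and Ly6c2 encode the Ly6C antigen that marks inflammatory monocytes, memory T cells and endothelium, and Ly6e (also called Sca-2 or TSA-1) is expressed in many tissues and affects the entry of several viruses. Several of these genes are induced by interferon, and less is known of Ly6i.

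In GENCODE M21 on GRCm38 the block ran from Ly6e (chr15:74955051-74959905, plus strand) through Ly6i (chr15:74979534-74983430), Ly6a (chr15:74994877-74998031) and Ly6c1 (chr15:75044018-75048830) to Ly6c2 (chr15:75108158-75111970), the last 4 on the minus strand. Gene starts lay between 1.52 Mb (Ly6e) and 1.37 Mb (Ly6c2) before the start of Hsf1 (chr15:76477422-76501913). Each of the 5 genes is protein coding with 3 coding exons in its first annotated transcript. Ly6c1 and Ly6c2 are near copies: 387 of 396 coding bases were identical (97.7%), and the last 500 transcript bases, the end that a 3′ library reads, were 98.2% identical. Ly6i and Ly6a shared 86.4% of aligned coding bases, whereas Ly6e shared between 59.9% and 64.7% with the others. The last 150 coding bases, stop codon included, are shown from the GENCODE M21 transcripts because they let the reader see how far reads of one gene can be told from reads of another. Capitals mark bases that differ from Ly6c2 in an alignment (in the Ly6c2 line, from Ly6c1).
Ly6c2: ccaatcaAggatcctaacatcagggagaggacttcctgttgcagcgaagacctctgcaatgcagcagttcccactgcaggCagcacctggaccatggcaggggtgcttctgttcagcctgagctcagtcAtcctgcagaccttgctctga
Ly6c1: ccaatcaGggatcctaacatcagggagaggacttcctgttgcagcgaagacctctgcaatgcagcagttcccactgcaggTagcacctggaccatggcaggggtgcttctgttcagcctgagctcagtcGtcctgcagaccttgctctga
Ly6a: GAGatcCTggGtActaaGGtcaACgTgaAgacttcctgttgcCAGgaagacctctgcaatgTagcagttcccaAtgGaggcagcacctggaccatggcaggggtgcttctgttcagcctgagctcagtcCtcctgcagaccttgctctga
Ly6i: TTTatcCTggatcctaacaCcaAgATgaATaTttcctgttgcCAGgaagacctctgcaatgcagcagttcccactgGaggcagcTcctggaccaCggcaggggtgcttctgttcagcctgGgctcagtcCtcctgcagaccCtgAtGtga
Ly6c1 differed from Ly6c2 at 3 of these 150 bases, Ly6a at 20, Ly6i at 23, and Ly6e at 62. Of all 31-base words in the last 500 transcript bases, 43.0% of those of Ly6c1 and 48.1% of those of Ly6c2 occurred in a transcript of another gene, against 25.3% for Ly6i, 13.6% for Ly6a and 0.426% for Ly6e. The counting of reads that match more than 1 gene is not given in the sources used here, so the split of UMIs (unique molecular identifiers, each marking 1 captured RNA molecule) between Ly6c1 and Ly6c2 is uncertain, and the values of Ly6i and Ly6a are so to a lesser degree.

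Promoter sequence was at hand for Ly6c1 and Ly6c2, the pair that is alike in coding sequence but not in where it was read out. The 250 bases before each annotated start are from RefSeq (GRCm38.p6), minus strand, chr15:75048838-75049087 for Ly6c1 and chr15:75111972-75112221 for Ly6c2. Capitals mark matches, on either strand, to GAGGAA, the core that the myeloid factor PU.1 binds.
Ly6c1: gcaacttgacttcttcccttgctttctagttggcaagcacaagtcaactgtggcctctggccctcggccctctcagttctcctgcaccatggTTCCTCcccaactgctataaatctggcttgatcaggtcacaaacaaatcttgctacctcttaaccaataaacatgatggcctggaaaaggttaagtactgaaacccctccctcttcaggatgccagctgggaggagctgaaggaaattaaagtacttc
Ly6c2: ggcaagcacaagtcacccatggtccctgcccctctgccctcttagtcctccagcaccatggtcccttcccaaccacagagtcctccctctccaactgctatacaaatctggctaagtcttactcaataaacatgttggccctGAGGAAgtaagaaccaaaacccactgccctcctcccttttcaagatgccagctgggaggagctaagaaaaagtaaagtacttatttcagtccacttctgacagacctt
The windows were 75.9% identical over 216 aligned bases, and each held 1 GAGGAA match, a motif present in 23.3% of all 32851 promoter windows of this length. Neither window held GAAA, any 2 bases and GAAA again, the core of the interferon-stimulated response element (2.98% of windows), TTCNNNGAA, the gamma-activated site (7.02%), or a heat shock element core, GAANNTTC or TTCNNGAA (12.8%). These motifs were searched on both strands, were chosen after the sequences had been seen, and a match or its absence describes only the letters of the window.

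There were 6654 WT cells with 87075636 UMIs in all and 4802 S303/7A cells with 72802161, and 48 cell barcodes occurred in both libraries. Levels below are UMIs of a gene per 10000 UMIs of a cluster, with exact Poisson 95% intervals, and ratios are S303/7A over WT relative to all UMIs of the cluster, with exact conditional (Clopper-Pearson) 95% intervals. All intervals cover counting error only. Cells of S303/7A were deeper: the ratio of median UMIs per cell ran from 1.39 to 2.45 over the 12 immune clusters with at least 50 cells in each library, and from 0.990 to 1.23 over the 4 Tumor clusters, so a gene can have a lower share of UMIs in an immune cluster without having fewer UMIs per cell. The deposited classes are macrophages (MF), monocytes (Mo), dendritic cells (DC), CD8 T cells (CD8T), regulatory T cells (Treg), NK cells, B cells, plasmacytoid DC (pDC), granulocytes (Gr), Stromal and Tumor. Among the markers listed for tumor cells, Spp1 was between 27.0 and 158 UMIs per 10000 in the WT Tumor clusters and Hmga2 between 2.72 and 9.96, whereas each Tumor cluster and library held at most 1 UMI of the keratin gene Krt8 and at most 5 of Krt18.

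Immune clusters had higher levels of 4 of the 5 genes than Tumor clusters, and Tumor clusters had more Ly6c1. In WT the median over immune clusters divided by the median over Tumor clusters was 39.2 for Ly6c2, 8.21 for Ly6i, 8.09 for Ly6a, 2.10 for Ly6e and 0.102 for Ly6c1. The same quotients in S303/7A were 33.1, 12.3, 9.21, 2.63 and 0.0421, in the same gene order. Thus 4 of 5 genes were at least 2-fold higher in immune clusters in each library, and of all genes held by at least 10% of the cells of 1 of these clusters, 19.1% were so in WT and 20.5% in S303/7A. Without cluster C09 the Ly6i quotient was 4.42 in WT and 17.1 in S303/7A. Ly6a and Ly6c2 were higher in every one of the 12 immune clusters than in any of the 4 Tumor clusters, in both libraries.

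**Figure D1:**
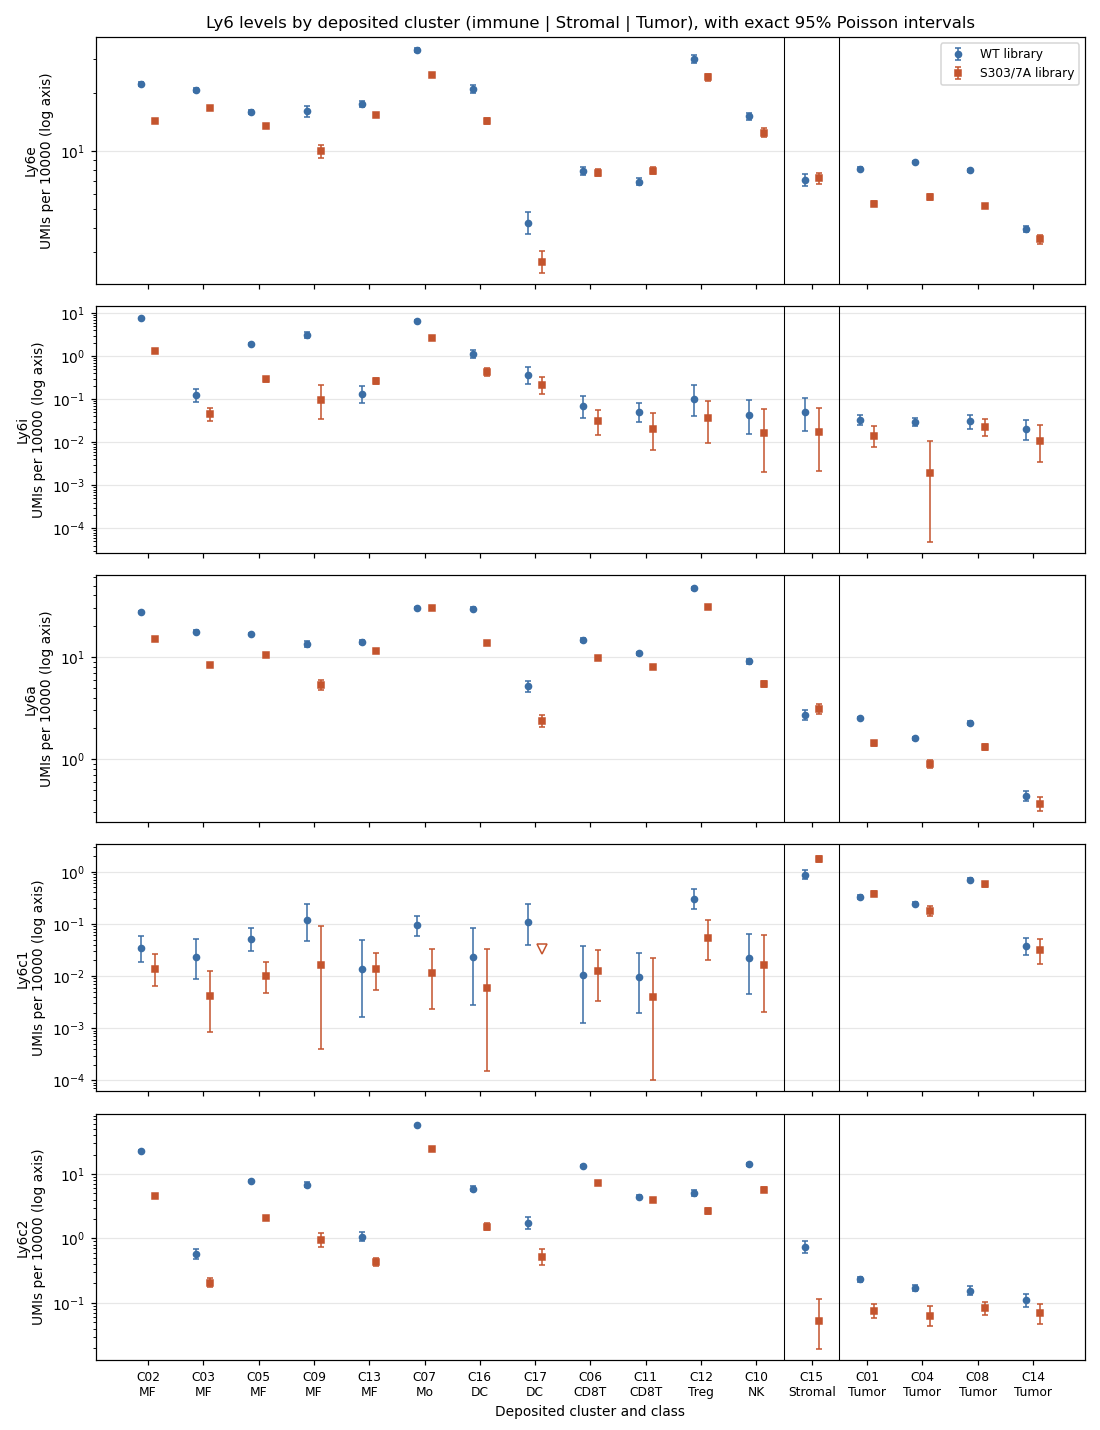
Level of each gene (UMIs per 10000 UMIs of the cluster, log axis) in the 17 clusters with at least 50 cells in each library, WT as blue circles and S303/7A as orange squares, with exact Poisson 95% intervals; the open triangle marks a cluster with no UMI, drawn at the level of 3 UMIs. Ly6c2 peaked in the Mo cluster C07 at 57.0 and 24.2, while Ly6c1 peaked in the Stromal cluster C15 at 0.874 and 1.77.

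Ly6e was the most evenly spread of the 5 genes. Its highest level among the clusters of this size was in the Mo cluster C07, where WT stood at 33.3 (32.6 to 34.1) and S303/7A at 24.7 (24.1 to 25.3), followed by Treg (C12) at 30.1 and 24.1. The intervals of C07 and C12 were separate in WT and overlapped in S303/7A. MF clusters lay between 16.0 and 22.3 in WT and between 9.98 and 16.7 in S303/7A, and NK cells (C10) were at 15.1 and 12.5. CD8 T cells held far less, 7.89 and 7.73 in C06 and 6.95 and 7.93 in C11, just below the Tumor clusters C01, C04 and C08 in WT (7.95 to 8.79) and above them in S303/7A (5.19 to 5.80). Among immune clusters with at least 50 cells in each library, the DC cluster C17 was lowest at 4.25 and 2.66. In cells thinned to 1000 UMIs each, 94.4% and 88.8% of Mo cells held a Ly6e UMI, and 47.4% and 38.2% of the cells of Tumor cluster C01 did.

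Between genotypes the Ly6e share was lower in S303/7A by a modest amount almost everywhere. Over the 12 immune clusters the median ratio was 0.803 (medians of the interval bounds 0.764 to 0.840), with 10 intervals below 1. The lowest was 0.619 in the MF cluster C09, which was lowest for Ly6i, Ly6a and Ly6c2 too. In C09 the 3 red cell markers (Hbb-bs, Hba-a1 and Hba-a2) summed to 0.0509 UMIs per 10000 in WT and 154 in S303/7A, and the neutrophil markers to 0.322 and 1.28, and their part in the C09 ratios was not tested. Without C09, a setting chosen after seeing the data, the immune median log2 ratios were -0.31 for Ly6e, -0.67 for Ly6a, -1.31 for Ly6c2 and -1.37 for Ly6i. CD8T C11 was the one immune cluster above 1, at 1.14 (1.07 to 1.21). UMIs per cell went the other way: they were higher in S303/7A in 12 of 12 immune clusters, by 1.12 (C17) to 1.73 times (C13), for example 14.8 and 24.6 UMIs per Mo cell. Tumor clusters were lower on both scales, where depth was nearly matched. Their ratios were 0.659 in C01, 0.660 in C04, 0.654 in C08 and 0.886 in C14, and UMIs per cell were 0.756 to 0.878 times those of WT, as in C04 with 29.9 and 22.6.

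Ly6a was highest in Treg (C12), where WT stood at 47.2 (45.6 to 48.9) and S303/7A at 31.1 (30.1 to 32.1). In S303/7A the Treg interval overlapped that of Mo C07. Next in WT were Mo C07 at 30.4 and the DC cluster C16 at 29.7, whose intervals overlapped, and then the MF cluster C02 at 27.5. The small pDC cluster C19 (33 and 32 cells) was at 29.6 and 16.2. CD8 T cells were at 14.6 and 9.83 in C06 and at 10.9 and 7.89 in C11, and NK cells at 9.08 and 5.44. Tumor clusters were lower than all of these, between 0.434 (C14) and 2.53 (C01) in WT and between 0.364 and 1.43 in S303/7A. Within C01 the median WT cell was at 0.677 per 10000 against a cluster level of 2.53, with a Ly6a UMI in 67.4% of its cells.

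The Ly6a share was lower in S303/7A in 11 of 12 immune clusters by intervals below 1, with a median ratio of 0.615. It was 0.398 (0.349 to 0.453) in C09, 0.456 in DC C16, 0.472 in MF C03 and 0.548 in MF C02. Mo C07 differed from these: 30.4 and 29.8 gave a ratio of 0.980 (0.949 to 1.01), and UMIs per Mo cell were 13.5 in WT and 29.6 in S303/7A. UMIs of Ly6a per cell were lower in 5 and higher in 7 of the 12 immune clusters. In the 4 Tumor clusters they were lower in each, 0.643 to 0.831 times WT, with share ratios of 0.567, 0.561 and 0.579 in C01, C04 and C08 and 0.839 (0.693 to 1.01) in C14.

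Ly6c2, the main Ly6C gene of monocytes, was highest in the Mo cluster. C07 stood at 57.0 (56.0 to 58.0) for WT and 24.2 (23.6 to 24.8) for S303/7A, followed by pDC C19 at 35.4 and 17.4. MF C02 came next in WT at 22.7, and in S303/7A it stood at 4.54, below CD8T C06 and NK cells. The other MF clusters spread from 7.68 and 2.10 in C05 and 6.82 and 0.952 in C09 down to 1.07 and 0.430 in C13 and 0.574 and 0.206 in C03. Among lymphocytes NK cells were at 14.1 and 5.72, CD8T C06 at 13.5 and 7.29, CD8T C11 at 4.40 and 3.98, and Treg at 5.08 and 2.65. Tumor clusters were between 0.109 and 0.231 in WT and between 0.0636 and 0.0819 in S303/7A. After thinning to 1000 UMIs, 0.897% to 1.63% of Tumor cluster cells in the WT library and 0.717% to 2.21% in the S303/7A library held a Ly6c2 UMI. This is read here as background, at median depths of 17991 to 41351 UMIs per cell before thinning.

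All 12 immune clusters had a lower Ly6c2 share in S303/7A, each with its interval below 1. The median ratio was 0.380 (medians of the bounds 0.304 to 0.440), from 0.140 (0.104 to 0.184) in C09 and 0.20 (0.192 to 0.208) in C02 to 0.904 (0.832 to 0.981) in CD8T C11. For Mo C07 the ratio was 0.425 (0.413 to 0.438), for NK 0.405 (0.371 to 0.442) and for DC C16 0.258 (0.222 to 0.301). Unlike Ly6e, Ly6c2 was also lower per cell in 11 of the 12, by most in C09 (0.271 times WT) and C02, where 12.2 UMIs per WT cell stood against 5.59. In Mo C07 the mean UMIs per cell were close, 25.4 and 24.1, in cells with median depths of 4292 and 9020 UMIs. Relative to all UMIs the median cell was at 45.5 per 10000 in WT and 13.7 in S303/7A, beside cluster levels of 57.0 and 24.2. The share of cells holding the gene at 1000 UMIs was 90% and 65.2% in C07, 62.0% and 21.7% in C02, and 31.5% and 17.1% in NK cells. For CD8T C11 these shares were 28.8% and 32.4%, with intervals that overlapped. In the Tumor clusters the ratios lay between 0.325 (C01) and 0.625 (C14), all 4 with intervals below 1, on low counts (31 to 453 UMIs in a cluster and library), and their median log2 ratio of -1.17 became -0.12 with a pseudocount of 1.

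Ly6i was read mainly in myeloid clusters. In WT it was highest in MF C02 at 7.68 (7.40 to 7.96) and Mo C07 at 6.59 (6.26 to 6.93), then MF C09 at 3.10, MF C05 at 1.94 and DC C16 at 1.13. The same clusters in S303/7A were at 1.36, 2.61, 0.0969, 0.292 and 0.434, so the order of C02 and C07 was inverted. MF C03 held 0.126 and 0.0448. Every CD8T, Treg and NK cluster was at 0.102 or less, and Tumor clusters were between 0.0199 and 0.0339 in WT and between 0.00193 (1 UMI) and 0.0231 in S303/7A. The granulocyte cluster C18 had 3.06 and 0.215, from 39 and 41 cells. B cluster C21 had 1.14 in WT, beside DC C16, and 0 in S303/7A, from 47 and 14 cells. The pDC cluster C19 had 0.591 and 0.0798, from 33 and 32 cells.

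The ratio of the Ly6i share was 0.177 (0.164 to 0.191) in C02, 0.151 (0.131 to 0.173) in C05, 0.0312 (0.0113 to 0.0693) in C09 and 0.396 (0.362 to 0.434) in Mo C07. Of the 11 immune clusters with at least 10 UMIs, 6 had intervals below 1 and 4 included 1, and the median ratio was 0.384 (log2 -1.38). As means over cells with a pseudocount of 1 UMI per 10000, above the level of Ly6i in most of these clusters, the median log2 ratio was -0.13. MF C13 lay on the other side: 20 UMIs in WT and 137 in S303/7A gave levels of 0.134 and 0.268, a ratio of 2.0 (1.24 to 3.37). At 1000 UMIs per cell, 40.0% and 10.5% of C02 cells, 31.5% and 20.2% of Mo cells and 17.1% and 2.09% of C05 cells held Ly6i. In Tumor C01 the shares were 0.217% and 0.258%, the background for this gene. Median depths before thinning were 5036 and 12318 UMIs in C02 and 17991 and 22114 in C01. Per cell, C02 held 4.11 and 1.67 UMIs and Mo C07 2.93 and 2.60.

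**Figure D2:**
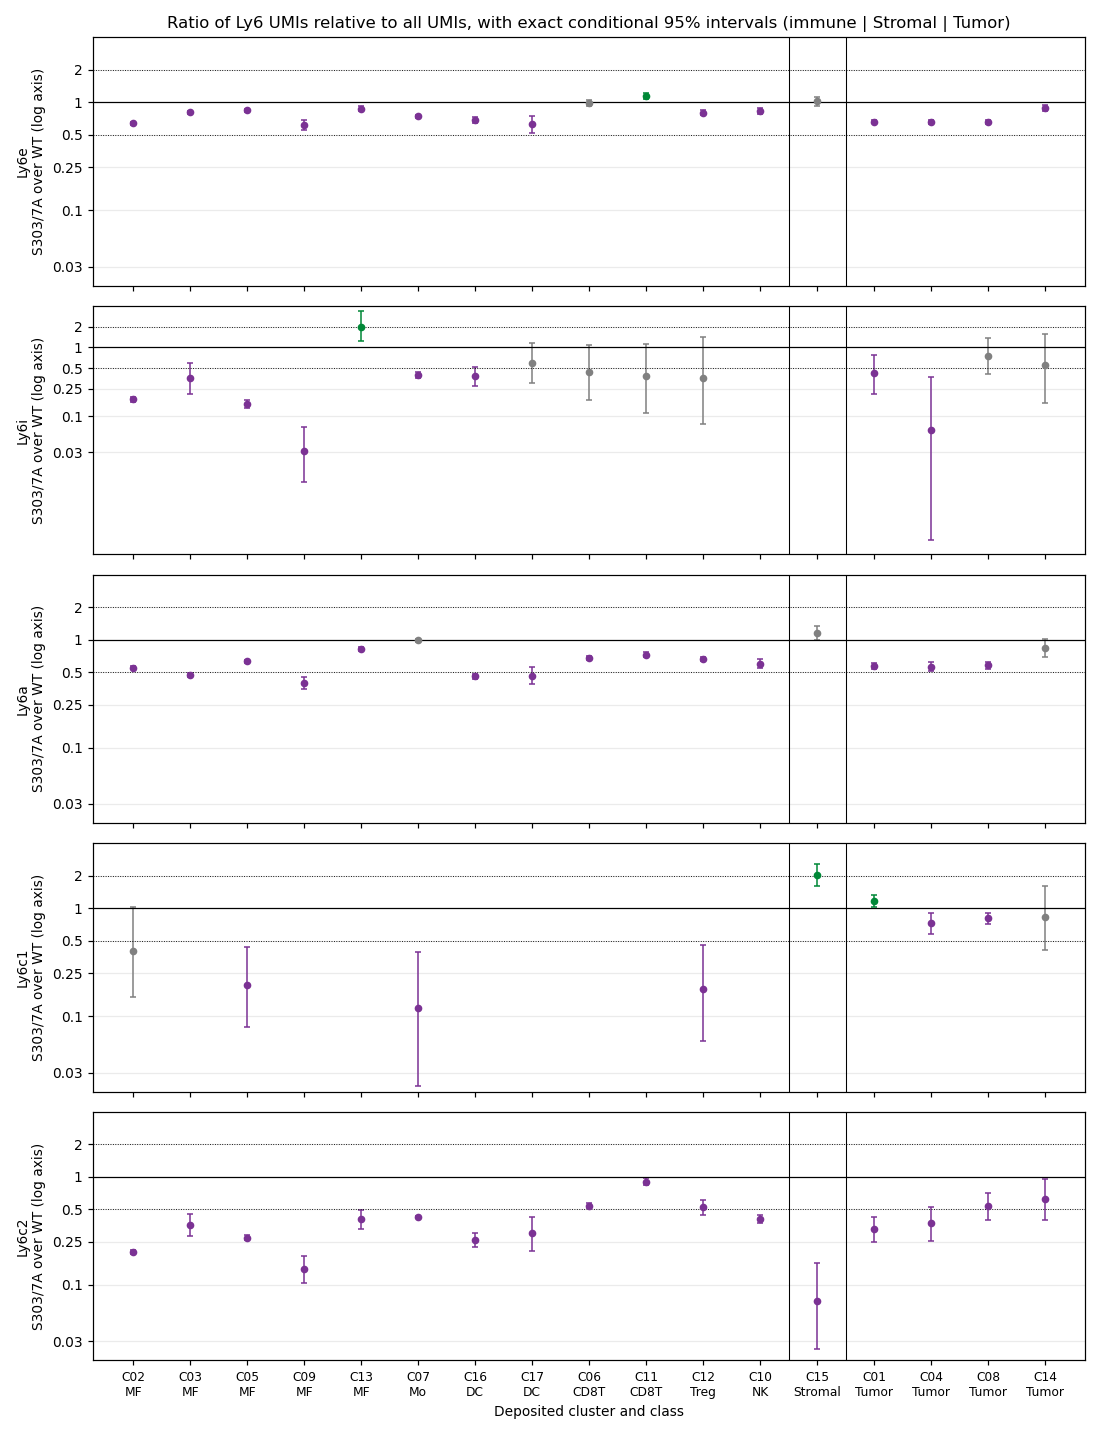
Ratio of UMIs, S303/7A over WT, relative to all UMIs of the cluster (log axis) for each gene and cluster with at least 10 UMIs, with exact conditional 95% intervals; purple intervals lie below 1, green above 1 and grey include 1, and dotted lines mark 2-fold. Ly6c2 lies below 1 in all 17 clusters, while Ly6c1 is above 1 in Stromal C15 (2.02) and Tumor C01 (1.17).

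Ly6c1 was low in immune cells and was read mainly in Stromal and Tumor clusters. Stromal C15 was highest, with 0.874 (0.714 to 1.06) for WT and 1.77 (1.53 to 2.03) for S303/7A, then Tumor C08 at 0.703 and 0.569, C01 at 0.325 and 0.380, C04 at 0.245 and 0.179 and C14 at 0.0373 and 0.0309. The highest immune value was 0.305 in WT Treg, from 21 UMIs, and 0.0543 in S303/7A. In cells thinned to 1000 UMIs no immune cluster had Ly6c1 in more than 1.87% of its cells, so its immune ratios (4 clusters with 10 UMIs, median 0.185) rest on very few molecules, and the median log2 ratio of -2.43 became -0.0817 with a pseudocount of 1. Across the 17 clusters the log2 level of Ly6c1 ran against that of Ly6c2 (Pearson r = -0.46 in WT and -0.60 in S303/7A, a description over clusters that share a library), although the genes are nearly identical in sequence.

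Among Tumor clusters the Ly6c1 ratios lay on both sides of 1, with 2 intervals below 1 and 1 above. The ratio was 1.17 (1.02 to 1.34) in C01, 0.732 in C04, 0.809 in C08 and 0.828 (0.406 to 1.61) in C14, a median of 0.818. The Tumor class taken as one gave 1.08, a direction that turned (log2 ratio -0.37) in thinned cells. The class pools clusters whose mix differed: C04 gave 26540580 of 62411907 Tumor UMIs in WT and 5186685 of 27444754 in S303/7A. C08 gave 10448008 and 8666086 of the same totals. The part of this mix in the class value was not tested. In Stromal C15 the Ly6c1 ratio was 2.02 (1.59 to 2.59), with 7.36% and 15.9% of 163 and 138 cells holding a UMI. Ly6c2 there went from 0.739 to 0.0523, a ratio of 0.0707 (0.0253 to 0.160). Markers of other cells moved with both. The endothelial genes Pecam1 (0.361 and 0.732) and Cdh5 (0.269 and 1.05) were higher in C15 of S303/7A, as was Gpihbp1, a Ly6 family gene that carries lipoprotein lipase in capillary endothelium (0.210 and 1.72). All 6 macrophage markers were lower there, summing to 5.28 and 1.63, and the fibroblast genes Col3a1 (1.64 and 0.645) and Dcn (0.529 and 0.218) were lower too. Without cells that hold a marker of another type, the log2 ratio of Ly6c1 in Stromal was -0.026, so the direction turned. The part of these markers in the Ly6c2 value of C15 was not tested. The 7 stromal markers summed to 3.30 and 2.96 in C15 against 22.0 and 20.8 in Tumor C01, and C15 held Krt8 at 0.227 and 0.410, so its markers are mixed and do not single out fibroblasts.

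Counted by deposited class, members held by at least 10% of the cells of the class in 1 library were set beside all genes passing the same filter. Class ratios here and below pool clusters, and the mix of clusters differed between the libraries. MF C02, for example, gave 3757118 of 11861373 MF UMIs in WT and 6478377 of 29378586 in S303/7A. The part of this mix in the class ratios was not tested. At least 2-fold lower in S303/7A were 2 of 4 in MF (Ly6i 0.143 and Ly6c2 0.185), where 0.7% of all genes were so, and the known MF values chose the list. The count was 2 of 4 in Mo (Ly6i 0.396 and Ly6c2 0.425, against 1.42% of genes), and 3 of 4 in DC (Ly6c2 0.264, Ly6i 0.407 and Ly6a 0.484, against 1.31%). In NK cells it was 1 of 3 (Ly6c2, against 0.967%) and in Tumor 1 of 4 (Ly6c2 0.419, against 1.34%). The low Ly6c2 values of Tumor clusters were read above as background, so this Tumor ratio need not describe tumor cells. None of 3 passed in CD8T (0.716% of genes), in Treg (1.24%) or in Stromal (11.4%). In DC the count was 1 for means over cells with a pseudocount of 1, in NK and in Tumor it was 0 with cells thinned to 1000 UMIs, and in Mo it was 1 among cells of at least 5000 UMIs. In Stromal 1 of 3 was at least 2-fold higher (Ly6c1), against 0.811% of genes. The shares of MF, Mo and DC stand well above the background, and those of NK and Tumor rest on 1 gene each. The genes were picked with such values in view, so these counts describe the choice.

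**Figure D3:**
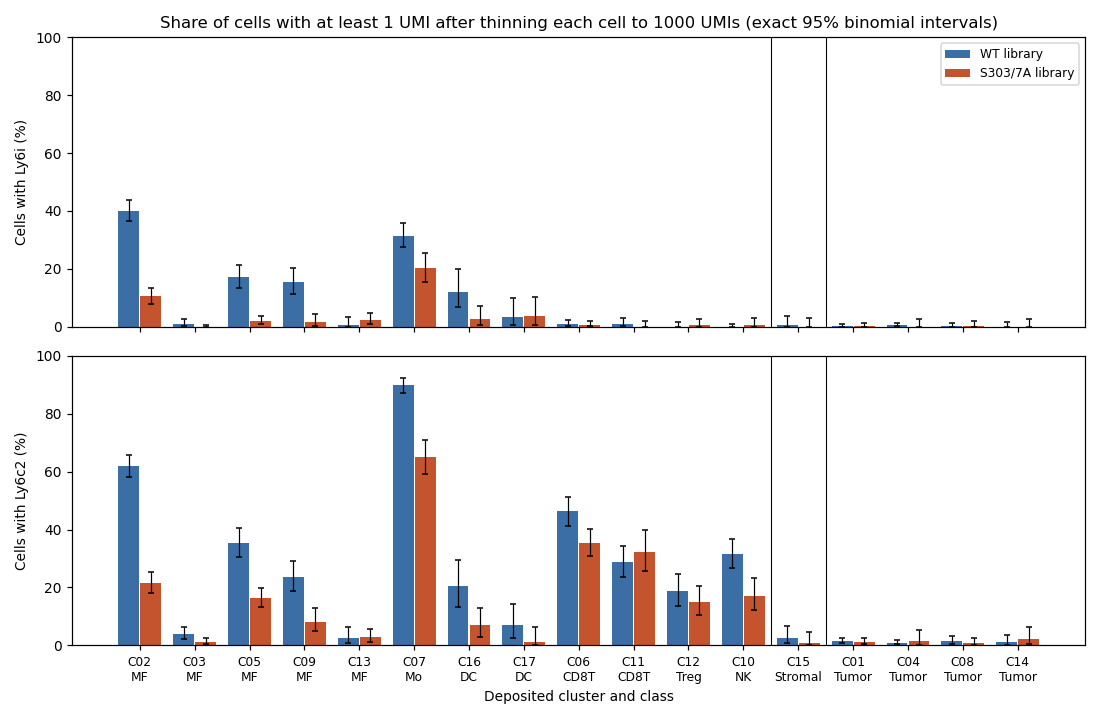
Share of cells (%) with at least 1 UMI of Ly6i (top) and Ly6c2 (bottom) in each cluster after every cell was thinned to 1000 UMIs, WT in blue and S303/7A in orange, with exact binomial 95% intervals. The C02 bars stand at 40.0% and 10.5% for Ly6i and at 62.0% and 21.7% for Ly6c2, and Tumor bars stay at 2.21% or less.

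In several clusters the genes were read in the same cells. The last 500 transcript bases of Ly6c2 were 88.9% identical to those of Ly6i and 87.2% to those of Ly6a. The part of reads counted for the wrong gene in the shares below was not tested. Among WT C02 cells thinned to 1000 UMIs, 73.7% of the 281 cells with Ly6i also held Ly6c2, against 54.2% of the 421 without it. In S303/7A these shares were 60% of 55 cells and 17.2% of 471. For Mo C07 the WT shares were 95.1% and 87.6%, and those of S303/7A were 70.4% and 63.8%. For Ly6a and Ly6c2 this differed by cluster. In CD8T C06 53.1% of WT cells with Ly6a held Ly6c2 and 32.8% of those without, and in S303/7A 44.1% and 24.5%. In CD8T C11 these shares were 31.7% and 25.2% in WT and 31.8% and 33.0% in S303/7A, and in Mo C07 91.1% and 87.6% in WT and 65.1% and 65.3% in S303/7A. Treg showed no such pairing, with Ly6a in 90% of the 40 WT cells holding Ly6c2 and in 93.7% of the 174 others, and in S303/7A in 74.2% of 31 and 87.6% of 178.

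Monocyte markers moved in the same clusters. Over the 5 MF clusters the summed level of the 5 listed monocyte markers (Chil3, Plac8, Ccr2, F13a1 and Hp) was between 8.22 and 65.1 in WT and between 4.65 and 20.9 in S303/7A, lower in each of the 5, and none of the 5 genes was at 0 in both libraries. In each of these clusters 1 or 2 of the 5 markers were higher in S303/7A. Most of that sum was Plac8, a gene of monocytes and plasmacytoid cells, at 59.0 and 13.7 in C02. Ccr2, the receptor that draws monocytes from blood, was not lower there, at 4.61 and 6.08. In Mo C07 the 6 macrophage markers were all higher in S303/7A and summed to 29.7 and 66.5, with C1qa at 8.02 and 23.3. The monocyte markers there, 2 of 5 higher, summed to 149 and 81.6. In the 4 Tumor clusters the same 6 macrophage markers summed to between 0.596 and 1.12 in WT and between 1.34 and 1.76 in S303/7A, and Ptprc, which encodes CD45, was between 0.0348 and 0.0662 and between 0.0221 and 0.0464. In the DC class the monocyte markers, 2 of 5 higher, summed to 24.7 and 7.08 and the macrophage markers, 6 of 6 higher, to 9.76 and 22.1. The part of all these markers in the Ly6 ratios was not tested.

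The genes most like each member over the WT clusters, by Pearson correlation of log2(level + 0.1) over 17 clusters among 5021 genes, differed from member to member. For Ly6e they were the interferon-induced genes Dhx58 (r = 0.92 in WT, 0.79 in S303/7A), Rtp4 (0.91 and 0.86) and Oas1a (0.91 and 0.82). Ly6a was closest to Tmem173, which encodes the DNA-sensing adaptor STING (0.96 and 0.91), to Zbp1, a sensor of nucleic acids (0.95 and 0.91), and to Hcls1, a cytoskeletal adaptor of blood cells (0.94 and 0.92). Nearest to Ly6c2 were Plac8 (0.94 and 0.94), Emb (0.93 and 0.87) and Diaph1 (0.92 and 0.91). The lectin receptor gene Clec4e (0.94 and 0.86), the pyrin gene Mefv (0.93 and 0.92) and Tarm1 (0.93 and 0.96) were closest to Ly6i. Ly6c1 was most like Plvap, a gene of fenestrated endothelium (0.85 and 0.91), Abhd2 (0.83 and 0.76) and S100a16 (0.81 and 0.93). Among the members, Ly6a and Ly6e were the most alike (0.83 and 0.87), followed by Ly6a and Ly6c2 (0.79 and 0.78). These are descriptions over clusters of the same libraries.

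Of 37 listed interferon response genes, 36 were in the table, and in MF 35 of the 36 were lower in S303/7A, with a median log2 ratio of -0.73 beside 0.04 for all genes. The lowest there were Gbp2, a guanylate-binding GTPase (3.04 and 1.13 UMIs per 10000), and Isg15, a ubiquitin-like modifier (12.6 and 5.64), and the highest were Irf9 (0.456 and 0.386) and Gbp7 (1.30 and 1.31). In Mo 35 of 36 were lower (median -0.54, all genes 0.09), in DC 36 of 36 (-0.89, all genes 0.02), in Tumor 35 of 35 (-0.84, all genes -0.03) and in Stromal 21 of 21 (-1.26, all genes -0.13). The lymphoid medians were nearer 0, at -0.10 in CD8T (20 of 32 lower), -0.16 in Treg (24 of 35) and -0.16 in NK (27 of 33). In CD8T the ends of the list were Igtp (1.04 and 0.727) and Trim30a (1.57 and 1.21) on the low side and Rsad2 (0.263 and 0.344) and Ifih1 (0.114 and 0.163) on the high side. At least 2-fold lower were 2 of 36 in MF (0.7% of all genes), 1 of 36 in Mo (1.42%), 16 of 36 in DC (1.31%), 13 of 21 in Stromal (11.4%) and 9 of 35 in Tumor (1.34%), and none in CD8T (0.716%), Treg (1.24%) or NK (0.967%). Ly6i and Ly6c2, at log2 ratios of -2.80 and -2.43 in MF, lay below each of the listed interferon genes there, the lowest of which was Gbp2 at -1.43. Low MF ratios of both genes were known when the list was chosen, so this order describes the choice.

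Genes that make and attach the GPI anchor, on which surface display of GPI-anchored Ly6 proteins depends, were mostly near the ratio of all genes. In MF 7 of 17 were lower and the median log2 ratio was 0.04, the same as for all genes, from Pgap2 (0.889 and 0.686 UMIs per 10000) and Pigm (0.0970 and 0.0773) to Pigc (0.111 and 0.148) and Pigp (0.318 and 0.427). In CD8T 3 of 14 were lower (median 0.11), from Pigq (0.134 and 0.117) and Pigf (0.341 and 0.313) to Pigh (0.0862 and 0.113) and Pigp (0.503 and 0.711). None of the 17 in MF or the 14 in CD8T was past 2-fold. Few of all genes were: 54 lower and 71 higher of 7710 in MF, and 45 and 72 of 6286 in CD8T. Mo stood furthest from the ratio of all genes, with 10 of 13 higher, 1 of them past 2-fold, and a median of 0.32 beside 0.09. Of all 5994 genes in Mo, 258 were at least 2-fold higher.

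The list of inflammatory monocyte genes had members on both sides of 1 in each class compared, with more lower than higher in each except Tumor. In MF 4 of 7 were lower, with Ifitm6 (0.384 and 0.0691) and Plac8 (28.6 and 6.27) lowest, while Fn1 (0.785 and 0.989) and F13a1 (0.653 and 1.85), the gene of a coagulation factor subunit, were highest. The MF median log2 ratio was -0.24 beside 0.04 for all genes. In Mo 8 of 11 were lower, with a median log2 ratio of -0.59 beside 0.09 for all genes. In DC 4 of 6 were lower (median -1.17, all genes 0.02), in Treg 5 of 6 (-0.42, all genes -0.04) and in NK 4 of 6 (-0.29, all genes -0.02). Stromal had 3 of 4 lower (-1.14, all genes -0.13) and Tumor 2 of 6 (0.40, all genes -0.03). In CD8T 3 of 5 were lower, with Ccr2 (0.427 and 0.157) and Fn1 (0.511 and 0.299) at the low end and S100a4 (7.29 and 9.12) and Ms4a4c (0.884 and 1.34) at the high end. At least 2-fold lower were 3 of 7 in MF (0.7% of all genes), 2 of 11 in Mo (1.42%) and 3 of 6 in DC (1.31%). The counts were 1 of 5 in CD8T (0.716%), 2 of 6 in Treg (1.24%), 2 of 4 in Stromal (11.4%) and none in NK or Tumor. In MF 1 of 7 was at least 2-fold higher, as were 71 of all 7710 genes.

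Ly6i and Ly6c2 were listed with low MF ratios already known, so their place below the rest of the region there was set in advance. The table held 101 genes whose start lies within 2 Mb of that of Hsf1, 96 of them outside the 5 described here. In MF 40 of these others were held by at least 10% of cells in 1 library, none was past 2-fold in either direction, 20 were below 1, and their median log2 ratio was 0.00. Of all 7710 genes passing this filter in MF, 54 were at least 2-fold lower and 71 higher, so none of 40 is near the background. In Mo none of 31 passed 2-fold, while of all 5994 genes 85 were lower and 258 higher by at least that much. Other genes of the region below 1 were 12 of 31 in Mo, 22 of 39 in DC, 22 of 33 in CD8T and 6 of 26 in Treg. The count was 20 of 29 in NK, 20 of 24 in Stromal and 40 of 52 in Tumor. Single genes passed 2-fold in DC (Arc lower and Cpsf1 higher, of 39), CD8T (Tmprss6 lower, of 33), NK (Plec and Dgat1 lower and Them6 higher, of 29), Stromal (Gsdmd and Cyhr1 lower, of 24) and Tumor (Apol6 lower, of 52), and none of 26 did in Treg. Of all genes passing the filter, 97 of 7421 were lower and 185 higher in DC, and 45 and 72 of 6286 in CD8T. In NK these numbers were 47 and 75 of 4860, and in Stromal 520 and 37 of 4560. Tumor had 127 and 49 of 9485, and Treg 58 and 75 of 4688. No gene of the region beside the Ly6 genes was past 2-fold in 3 or more immune classes. The genes just named were picked after their values had been seen.

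**Figure D4:**
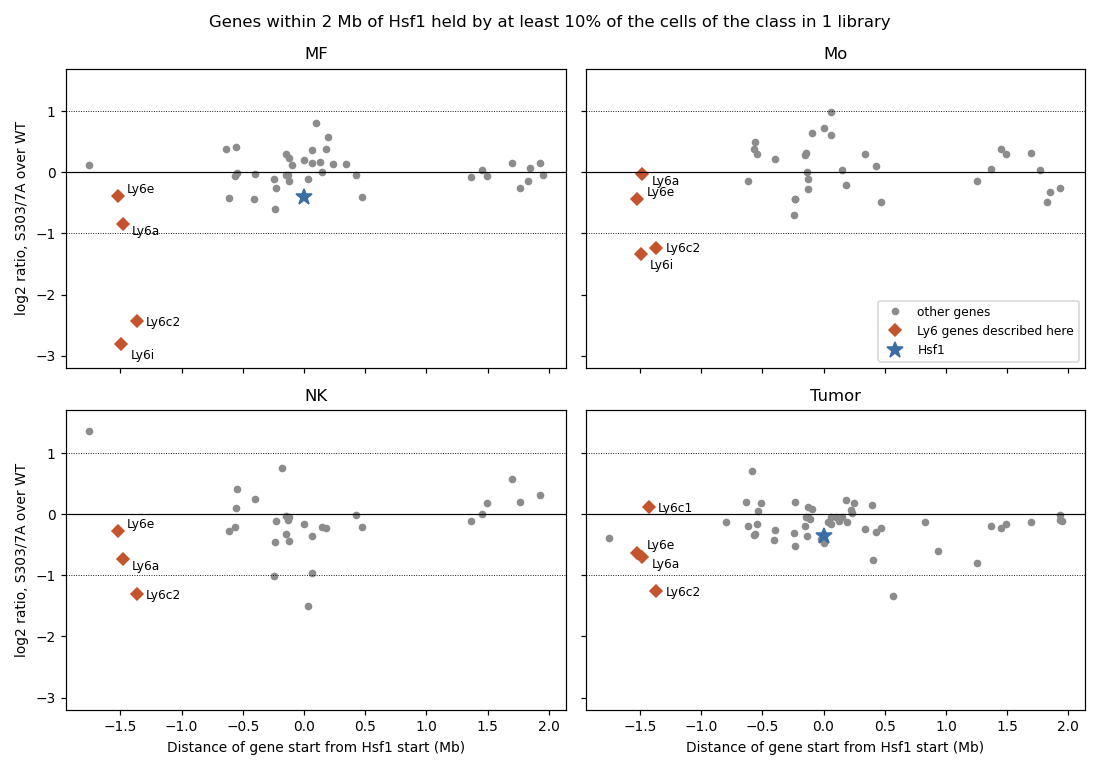
log2 ratio, S303/7A over WT, against the distance of a gene's start from that of Hsf1 (Mb) for genes held by at least 10% of the cells in 1 library, in 4 deposited classes; orange diamonds are the Ly6 genes described here, the blue star is Hsf1 where it passed the filter, and dotted lines mark 2-fold. In MF Ly6c2 (-2.43) and Ly6i (-2.80) lie below every other gene of the region, and their low MF ratios were known when the list was chosen.

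Hsf1 itself was read at low levels, and a change of codons would not show in its UMI count, so it does not check the genotype labels. It was at 0.137 and 0.103 in MF, a ratio of 0.758 (0.624 to 0.923), and at 0.252 and 0.197 in Tumor, 0.781 (0.707 to 0.861). Over immune clusters its median ratio was 0.794, with 2 of 11 intervals below 1. In NK cells 26 and 16 UMIs gave 0.700 (0.351 to 1.36).

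Of the other Ly6 family genes near by, Ly6d was a B and pDC gene, at 13.8 and 31 in B cells (47 and 14 cells) and at 15.7 and 9.20 in pDC. Its ratio in pDC was 0.588 (0.503 to 0.687), and in B cells it was 2.25 (1.77 to 2.84). All 5 B cell markers were higher in that B cluster of S303/7A, summing to 32.7 and 81.8, and all 6 macrophage markers lower, summing to 42.7 and 4.13, and their part in the Ly6d value was not tested. In the same pDC cluster Ly6a was at 0.547, Ly6c2 at 0.492 and Ly6e at 0.779 times WT. Ly6k had 4 and 23 UMIs in CD8T, and Lynx1 103 and 62 in Tumor. Ly6g, the marker of neutrophils, and 2010109I03Rik had at most 3 and 9 UMIs in any class and library.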

How the data were processed

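The expression table was deposited on a natural log scale: from its values, the authors took the natural log of 1 plus a gene's UMIs scaled to 100000 per cell, rounded to 3 decimals. Other deposited measures were whole counts per cell (UMIs and genes), and a mitochondrial percent was deposited but not used. Each cell's library, cluster and class are the authors' deposited annotation. Per the submitters' processing notes, Cell Ranger and Seurat 3.0 were used with mm10 and GRCm38, with filters not given in the sources used here.

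Undoing the log gave whole UMIs (99.9% of nonzero values within 0.1 of a whole number, 11456 cells). UMIs were summed by cluster, and medians were taken over clusters with at least 50 cells in each library and at least 10 UMIs. Cells were thinned to 1000 UMIs, leaving out 199 WT and 63 S303/7A cells. Scrublet (scanpy 1.11.5) marked 0.932% and 0.167% of cells, so 360 and 215 top-scoring cells were left out as an alternative only. The interval was tried on simulated Poisson counts, the model it assumes, so this does not cover variation between cells, mice or libraries. Named genes were all members, Hsf1, family genes, the 2 highest and 2 lowest of each list in MF and CD8T, and the 3 most like each member. Members and lists were chosen with earlier results of these data known. Python 3.11.15, numpy 2.4.6, scipy 1.17.1 and pandas 2.3.3 were used.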

Additional observations from a re-analysis of the deposited data

Results flagged for a closer look

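Some ratios lay on the other side of 1 from those of the same gene in other clusters, with intervals that excluded 1 on both sides. The difference between clusters was not tested in any of these cases. Ly6e in CD8T C11 had a ratio of 1.14, while 10 immune and 4 Tumor clusters had intervals below 1. Ly6i in MF C13 stood at 2.0, against 0.177 in MF C02 and 0.151 in MF C05. Ly6c1 in Stromal C15 was at 2.02 and in Tumor C01 at 1.17, against 0.732 in Tumor C04 and 0.809 in Tumor C08.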

How the results depend on the processing

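Limits come first. There was 1 library per genotype, made of pooled mice, so genotype, mice, linked alleles and library cannot be told apart, and intervals cover counting error only. Depth differed between the libraries in immune clusters. The median log2 ratio over immune clusters kept its sign in 49 of 49 values over the 5 genes and the alternatives run, the median over Tumor clusters in 47 of 49, and the ratio in a class in 213 of 221. No paired analysis was possible because each genotype has 1 library. No library could be left out.

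Averaging over cells with a pseudocount of 0.1 gave medians of -0.61 for Ly6c1 in immune and -0.60 for Ly6c2 in Tumor clusters, an immune over Tumor level of Ly6a of 7.52 in WT, and 1 member at least 2-fold lower in Treg and 0 in NK and in Tumor. With a pseudocount of 1 the medians were -0.53 for Ly6e, -0.48 for Ly6a and -0.12 for Ly6c2 in Tumor clusters and -0.13 for Ly6i, -0.0817 for Ly6c1 and -1.01 for Ly6c2 in immune clusters, and the members lower were 1 in DC, 1 in Treg, 0 in NK and 0 in Tumor. Thinning to 1000 UMIs gave -0.55 for Ly6e in Tumor clusters, immune over Tumor levels in S303/7A of 12.1 for Ly6a, 0 for Ly6c1 and 21.8 for Ly6c2, and 0 members lower in NK and in Tumor, and it turned Ly6c1 in the Tumor class to -0.37. Without doublets Ly6c2 was 48.9 times higher in immune than in Tumor clusters of WT, and 0 members were lower in Tumor. Leaving out cells that hold a marker of another type (4871 WT and 2790 S303/7A cells, 11 immune and 2 Tumor clusters remain) gave Tumor medians of -0.65 for Ly6e, 0.29 for Ly6i, -0.95 for Ly6a and -0.69 for Ly6c1. The immune over Tumor levels were then 2.26 and 2.90 for Ly6e in WT and S303/7A, 8.34 for Ly6a in S303/7A, and 54.2 and 18.5 for Ly6c2, and 0 members were lower in NK and in Tumor. It turned Ly6c1 to -0.026 in Stromal and to -0.14 in Tumor. Classes in place of clusters gave immune over Tumor levels of 10.2 for Ly6a in WT and of 50.6 and 56.6 for Ly6c2. With no filter on cells holding the gene, 1 member was lower in CD8T and 2 each in Treg, NK, Stromal and Tumor. Leaving out cluster C09 and keeping cells of at least 5000 UMIs were chosen after seeing the data. The latter left 1 member lower in Mo and turned Ly6c2 in CD8T to 0.0437. The cause was not tested for any of these.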
